A study of Mus musculus with 4 samples.

Results

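The genes described here are 10 genes of cholesterol efflux and lipoprotein handling in phagocytes. They were chosen by name for their roles in the LXR and PPAR gamma pathways, with earlier results of these data known. They are the nuclear receptor genes Nr1h2, Nr1h3, Pparg and Rxra, the efflux transporter genes Abca1 and Abcg1, and the genes Apoe, Lpl, Lrp1 and Mylip of lipoprotein handling. All 10 had a row among the 17476 genes of the count table, and all 10 were among the 14239 that passed the filter on low counts. The series set myeloid-derived suppressor cells (MDSCs), immature myeloid cells that restrain T cells, with a mutated Trem2 gene against wild-type (WT) MDSCs. For both groups MDSCs were grown in vitro from bone marrow precursors, from C57/BL6 mice for WT and from TREM2mut mice for the mutant, and both groups carry the strain label C57BL/6. The recipients of both groups were male NRG mice, a strain that lacks lymphocytes but keeps its own myeloid cells. They were 6 weeks old when given TRAMP-C1 cells, a mouse prostate cancer line, under the skin, received the MDSCs 4 weeks later and were killed 6 h after that. CD45+, CD11B+, GR1+ cells were sorted from the digested tumours, a gate with no marker that tells donor from recipient cells. The kind of Trem2 mutation, and whether each library came from its own animals, are not stated in the labels, so p-values measure the spread between libraries, which may be technical. There were 2 libraries per genotype, called WT 1, WT 2, Trem2 mutant 1 and Trem2 mutant 3 after their columns.

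LXR alpha (Nr1h3) and LXR beta (Nr1h2) are nuclear receptors that sense oxysterols. Together with the partner RXR alpha (Rxra) they bind paired half-sites in DNA and switch on genes that move cholesterol out of the cell. In macrophages the targets include Abca1 and Abcg1, which load cholesterol onto lipoprotein particles, Apoe, which carries it, Lpl, and Mylip, whose product is a ubiquitin ligase that lowers lipoprotein uptake. PPAR gamma (Pparg) senses fatty acids, also pairs with RXR, drives lipid storage and uptake genes, and is known to raise LXR alpha in macrophages. Lrp1 encodes a large endocytic receptor that takes up ApoE-bearing particles. Trem2 encodes a myeloid receptor that binds lipids and lipoproteins, ApoE among them.

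Libraries held 8037733 to 10306674 reads. Trem2 was at 44.2 and 52.2 CPM (read counts relative to the TMM-scaled library size) in WT 1 and WT 2, and at 22.9 and 21 CPM in Trem2 mutant 1 and Trem2 mutant 3. Its log2 fold change was -1.14 (SE 0.125, edgeR adjusted p = 0.00157), but reads over the whole gene do not check the mutation itself. The sorted markers Ptprc (CD45) and Itgam (CD11b) were abundant in all 4 libraries, at 1114 to 1363 CPM and 420 to 653 CPM. Ly6g, one of the antigens of GR1 antibodies, was at 5.66 and 7.22 CPM in WT and at 144 and 123 CPM in the mutant libraries, and Ly6c2, a gene of the other, Ly6C, at 26.9 and 24.8 against 378 and 282 CPM. Ly6c1, also a gene of Ly6C, was at 0.761 to 1.32 CPM and was not tested. One noncoding locus, Gm42418, took 13.9% of the reads of Trem2 mutant 1 and 0.258% to 1.04% of the other libraries.

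Of the 10 genes, 2 rose in the mutant libraries (Pparg and Apoe), 5 fell (Nr1h3, Abcg1, Lpl, Lrp1 and Mylip) and 3 did not pass the test (Nr1h2, Rxra and Abca1). A gene counts as risen or fallen where edgeR's quasi-likelihood test gave an adjusted p under 0.05 over all genes tested. By that rule 13.2% of all genes were called, 9.55% as higher and 3.60% as lower. Because the 10 genes were chosen with earlier results known, their share of calls is not a test of the pathways. The median log2 fold change of the 10 genes was -0.33, against -0.02 over all genes. In 7 of the 10 genes the WT and mutant libraries did not overlap in CPM, where 60.5% of all genes tested did not overlap. Fewer cells of a type and less RNA per cell cannot be told apart in such bulk libraries. The 10 genes summed to 2779 and 2869 CPM in WT and to 2107 and 1964 CPM in the mutant libraries. As shares of all reads, which in Trem2 mutant 1 include the reads of Gm42418, that was 0.318% and 0.324% against 0.171% and 0.186%. Lrp1 alone averaged 1492 CPM in WT and 926 CPM in the mutant libraries. The sums thus largely follow Lrp1 and do not stand for each of the 10 genes.

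**Figure D1:**
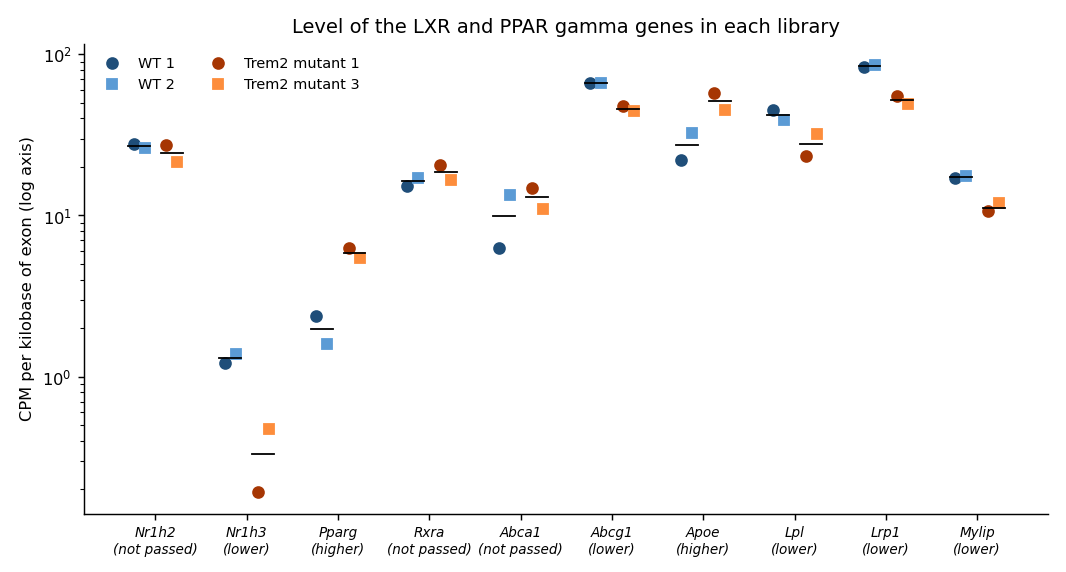
Level of each of the 10 genes in each library, as CPM per kilobase of exon on a log axis; points are single libraries, black lines are group means, and the test result stands under each name. Pparg and Apoe are higher in both mutant libraries than in both WT libraries, and Nr1h3, Abcg1, Lpl, Lrp1 and Mylip are lower in both.

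Per kilobase of exon, which allows levels to be set side by side between genes, Lrp1 was the highest of the 10 in WT at 84.2 ± 1.75 CPM per kilobase (SD, n = 2). Abcg1 (66.3 ± 0.399) and Lpl (42.3 ± 4.08) followed, and the 3 did not overlap. Next came Apoe (27.3 ± 7.41) and Nr1h2 (26.9 ± 0.916), whose libraries overlapped, then Mylip (17.4 ± 0.268), Rxra (16.3 ± 1.39) and Abca1 (9.88 ± 5.03). Pparg (1.98 ± 0.540) and Nr1h3 (1.30 ± 0.128) were the lowest. In the mutant libraries the top of this order closed up. Lrp1 (52.3 ± 4.09 CPM per kilobase) and Apoe (51.4 ± 8.48) overlapped, as did Apoe and Abcg1 (46.1 ± 2.72). Lpl (27.8 ± 6.23) overlapped with Nr1h2 (24.4 ± 4.14), and Abca1 (13.0 ± 2.80) with Mylip (11.2 ± 0.922). Rxra stood between those pairs at 18.6 ± 2.72. Pparg reached 5.85 ± 0.557, and Nr1h3, at 0.330 ± 0.198, was again the lowest.

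Among the receptors, Pparg rose and Nr1h3 fell, while Nr1h2 and Rxra did not pass. Pparg (ENSMUSG00000000440, GRCm38 chromosome 6, 115360951 to 115490399, plus strand) had 64 and 43 reads in WT 1 and WT 2 and 154 and 150 reads in Trem2 mutant 1 and Trem2 mutant 3. Both mutant libraries, at 18.4 and 16.1 CPM, lay above both WT libraries, at 6.96 and 4.71 CPM. The gene was 2.95-fold higher (log2 fold change 1.56, SE 0.218, edgeR adjusted p = 0.00408). It remained higher when any single library was left out, with log2 fold changes of 1.31 to 1.87. An antisense gene within Pparg, Gm44079, had 2 to 5 reads per library.

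Nr1h3 (ENSMUSG00000002108, chromosome 2, 91184061 to 91202834, minus strand) had 28 and 32 reads in WT 1 and WT 2, and only 4 and 11 reads in Trem2 mutant 1 and Trem2 mutant 3. At 0.479 and 1.18 CPM both mutant libraries lay below the WT libraries, at 3.05 and 3.50 CPM, and Trem2 mutant 1 was close to the floor of 3 reads, which is 0.359 CPM there. Its log2 fold change of -1.94 (SE 0.439, edgeR adjusted p = 0.0274) corresponds to a 3.82-fold lower level. The call is a weak one. With DESeq2 it was lost (adjusted p = 0.0762), as it was without WT 1 (-2.03, edgeR adjusted p = 0.109), without WT 2 (-1.83, 0.123) and without Trem2 mutant 1 (-1.45, 0.0708). Without Trem2 mutant 3 it was -2.72 (0.00706).

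Nr1h2, the more widely expressed LXR, was far more abundant than Nr1h3 in every library. Nr1h2 (ENSMUSG00000060601, chromosome 7, 44549616 to 44553951, minus strand) stood at 92.5 and 88.1 CPM in WT and at 91.8 and 72.1 CPM in Trem2 mutant 1 and Trem2 mutant 3. The groups overlapped, and the log2 fold change was -0.14 (SE 0.119, edgeR adjusted p = 0.463). It passed only without Trem2 mutant 1 (-0.31, adjusted p = 0.0428) and when scaled by library totals only (-0.53, 0.0119), and was 0.04 without Trem2 mutant 3. Rxra (ENSMUSG00000015846, chromosome 2, 27676440 to 27762957, plus strand) was at 83.4 and 94.1 CPM in WT and at 112 and 91.3 CPM in the mutant libraries. These overlapped too, with a log2 fold change of 0.20 (SE 0.116, edgeR adjusted p = 0.297) that became -0.19 under scaling by library totals alone. Without Trem2 mutant 3, Rxra was called higher (0.36, adjusted p = 0.0176).

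The 2 efflux transporters differed in how they were placed. Abcg1, the exporter to mature HDL, fell, while the libraries of Abca1, the exporter to lipid-poor apolipoproteins, overlapped. Abcg1 (ENSMUSG00000024030, chromosome 17, 31057675 to 31117988, plus strand) had 4427 and 4437 reads in WT and 2925 and 2999 reads in the mutant libraries. At 482 and 486 CPM the WT libraries were nearly equal, and the mutant libraries lay lower at 350 and 322 CPM. That is a log2 fold change of -0.52 (SE 0.0869, edgeR adjusted p = 0.00822), or a 1.44-fold lower level. Without WT 1 and without WT 2 the size stayed at -0.53 and -0.52, but with 1 WT library left the call was lost (adjusted p = 0.0716 and 0.0605). Abcg1 ends 17.2 Mb before Trem2 starts on the same chromosome, and whether sequence linked to the mutated Trem2 allele bears on it was not tested. An rRNA gene inside Abcg1, Gm25447, had 11 to 20 reads per library.

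Abca1 (ENSMUSG00000015243, chromosome 4, 53030787 to 53159895, minus strand) was the member with the widest spread within WT. It had 602 reads (65.5 CPM) in WT 1 and 1272 reads (139 CPM) in WT 2, a 2.13-fold gap, against 155 and 114 CPM in Trem2 mutant 1 and Trem2 mutant 3. Trem2 mutant 3 thus lay between the WT libraries. The log2 fold change was 0.39 (SE 0.303, edgeR adjusted p = 0.429). This value depended on both WT libraries. Without WT 1 the log2 fold change was -0.05, and without WT 2 it was 1.03 and was called higher. These data therefore give no direction for Abca1.

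Abca1 and Mylip are both known as direct LXR targets, and the bases before their starts are shown as the sequences in which a search for the LXR type of repeat was made. Each is given as the 250 bases before the RefSeq transcription start (GRCm38.p6). The Abca1 window, chr4:53159896-53160145 on the minus strand, is shown with its closest stretch to a DR4, a direct repeat of the receptor half-site with a spacer of 4 bases, the type of site that LXR and RXR are known to bind. The Mylip window is chr13:45389492-45389741 on the plus strand. Capitals mark that stretch in Abca1 and the TATAAA of both genes.
Abca1: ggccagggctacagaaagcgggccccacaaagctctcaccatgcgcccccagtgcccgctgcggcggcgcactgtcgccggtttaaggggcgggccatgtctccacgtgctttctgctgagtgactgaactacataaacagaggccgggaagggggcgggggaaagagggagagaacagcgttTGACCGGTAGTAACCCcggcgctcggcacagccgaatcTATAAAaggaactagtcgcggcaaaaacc
Mylip: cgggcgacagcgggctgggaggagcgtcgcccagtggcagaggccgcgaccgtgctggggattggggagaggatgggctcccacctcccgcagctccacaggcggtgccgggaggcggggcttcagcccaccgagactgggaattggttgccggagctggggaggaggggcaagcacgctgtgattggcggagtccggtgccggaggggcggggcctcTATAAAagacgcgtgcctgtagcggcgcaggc
The motif searched, on both strands, was AGGTCA, any 4 bases (NNNN), and AGGTCA again. The Abca1 stretch lies 67 to 52 bases before the start, reads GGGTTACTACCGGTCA along the motif, and differs from it at 3 of the 12 fixed letters. Of 32851 windows of this length, 18.5% held a match at least as close, so the letters alone do not set Abca1 apart. Of the Mylip window, the closest stretch differed at 6 letters, which every window reaches. TATAAA, searched on both strands, stood 29 and 32 bases before the 2 starts and was in 12.4% of all windows. The RefSeq table held windows for 8 of the 10 genes; Abcg1 and Lpl were not matched. Apart from Abca1, a match at 3 mismatches or fewer was found at 1 of the 2 Rxra starts. There was none at the starts of Nr1h2, Nr1h3, Pparg, Apoe, Lrp1 or Mylip. Only the 250 bases before a start were searched, so a site elsewhere would have been missed. These matches describe letters only, and whether LXR binds at any of them was not tested.

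Of the lipoprotein genes, Apoe rose and Lpl, Lrp1 and Mylip fell. Apoe (ENSMUSG00000002985, chromosome 7, 19696109 to 19699188, minus strand), the main apolipoprotein made by macrophages, was at 47.2 and 69.6 CPM in WT and at 123 and 97.2 CPM in the mutant libraries. Both mutant libraries were higher, by a log2 fold change of 0.91 (SE 0.183, edgeR adjusted p = 0.0172), or 1.88-fold. Without WT 1 the log2 fold change was 0.66 and the call was lost (adjusted p = 0.0765), and without WT 2 it was 1.22 (0.00768). C1qa, a macrophage gene of the complement trigger C1q named here after its values were seen, was at 23.8 and 31.6 CPM in WT and at 71.2 and 45.7 CPM in the mutant libraries (adjusted p = 0.0186, and 0.115 without WT 1). Its libraries stood in the same order as those of Apoe, but so few libraries can hardly tell genes apart by their order. Other macrophage markers stood the opposite way: Adgre1, Cd68 and Cd63 were lower in both mutant libraries, at log2 fold changes of -0.20, -0.31 and -0.29 that did not pass (adjusted p = 0.150, 0.0864 and 0.106). The part of these cells in the Apoe difference was not tested.

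Lpl (ENSMUSG00000015568, chromosome 8, 68880491 to 68907448, plus strand) encodes lipoprotein lipase, which splits triglycerides in lipoproteins. It had 4350 and 3771 reads in WT 1 and WT 2, and 2042 and 3135 reads in Trem2 mutant 1 and Trem2 mutant 3. All WT values (473 and 413 CPM) exceeded both mutant values (245 and 337 CPM), although the mutant libraries differed 1.38-fold from each other. The log2 fold change was -0.61 (SE 0.151, edgeR adjusted p = 0.0377). Its size depended on the mutant library used, at -0.38 without Trem2 mutant 1 and -0.84 without Trem2 mutant 3, and the call was lost without WT 1 (-0.51, adjusted p = 0.210) and without WT 2 (-0.70, 0.0670).

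Lrp1 (ENSMUSG00000040249, chromosome 10, 127538161 to 127621148, minus strand) had the most reads of the 10 genes, 13516 and 13832 in WT and 8158 and 8140 in the mutant libraries. Replicates lay close together at 1470 and 1514 CPM in WT and 977 and 875 CPM in the mutant. The gene was 1.61-fold lower in the mutant libraries (log2 fold change -0.69, SE 0.105, edgeR adjusted p = 0.00586). Leaving out 1 library moved the size little, from -0.59 to -0.76, but without WT 1 and without WT 2 the adjusted p was 0.0541 and 0.0534. An antisense gene within Lrp1, Gm16217, had 9 to 28 reads per library, and whether reads were counted by strand is not stated.

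Mylip (ENSMUSG00000038175, chromosome 13, 45389742 to 45412022, plus strand) behaved much as Lrp1 did. It was at 55.6 and 56.8 CPM in WT and at 34.3 and 38.5 CPM in the mutant libraries, with no overlap. Its level was 1.54-fold lower (log2 fold change -0.63, SE 0.102, edgeR adjusted p = 0.00771). Without WT 1 and without WT 2 the size was -0.64 and -0.61, with adjusted p of 0.0608 and 0.0556.

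**Figure D2:**
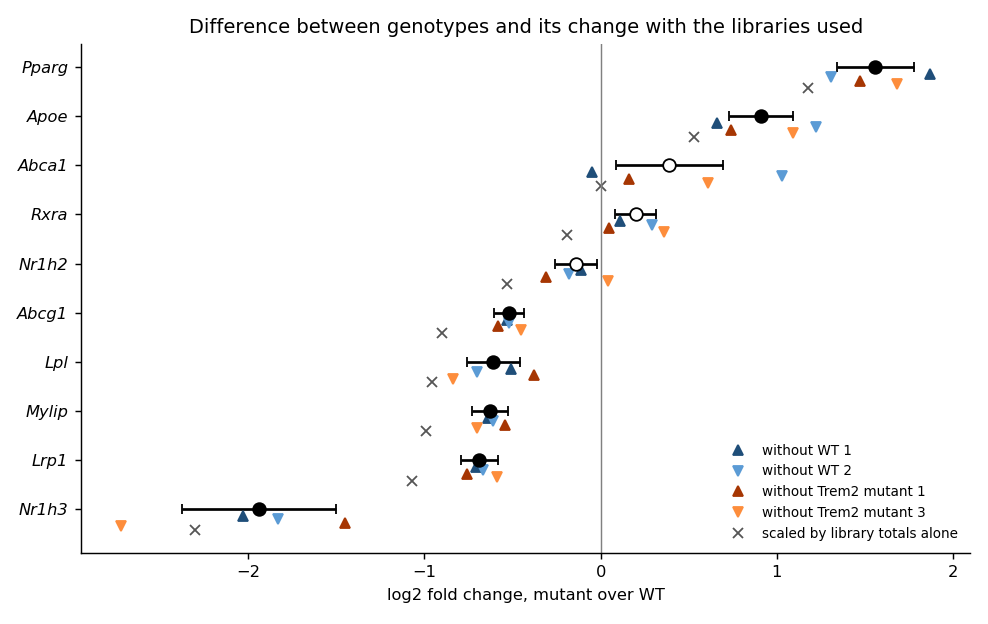
Log2 fold change of mutant over WT for each gene with its SE (circles, filled where the test was passed), and the same value with each library left out or with library totals as the only scaling. Pparg and Apoe stay right of 0 and Nr1h3, Abcg1, Lpl, Lrp1 and Mylip left of it under every choice shown. Abca1 moves from -0.05 to 1.03.

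How many of the 10 genes were called depended on which libraries were used. Without WT 1, 1 gene was called, Pparg, where 3.86% of all genes were. Without WT 2, 3 were called (Pparg, Apoe and Abca1, all higher), where 5.66% of all genes were. Without Trem2 mutant 1, 7 were called against 14% of all genes, and without Trem2 mutant 3, 8 against 20.4%. When libraries were scaled by their totals alone, the all-gene median moved from -0.02 to -0.40. Then 2 of the 10 genes were higher and 6 lower, where 4.56% of all genes were higher and 30.7% lower. Relative to that median, Pparg was at 1.58, Apoe at 0.92 and Abca1 at 0.40. On the same footing Rxra was at 0.21, Nr1h2 at -0.13, Abcg1 at -0.50, Lpl at -0.57, Mylip at -0.60, Lrp1 at -0.67 and Nr1h3 at -1.90.

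Ratios between genes within a library do not depend on scaling between libraries. The pairs given here were chosen after their values were seen, and 2 against 2 libraries cannot give an exact permutation p below 0.333 (two-sided), so they are descriptions. Per kilobase of exon, Nr1h2 exceeded Nr1h3 by 22.8-fold and 18.9-fold in WT 1 and WT 2 and by 144-fold and 45.7-fold in Trem2 mutant 1 and Trem2 mutant 3, the latter resting on the few Nr1h3 reads. LXR beta was thus the main LXR transcript in all 4 libraries. The ratio of Abcg1 to Abca1 was 10.4 and 4.95 in WT and 3.21 and 4.03 in the mutant libraries. Pparg stayed below Ppard, the related PPAR delta gene, at ratios of 0.296 and 0.170 in WT and 0.607 and 0.678 in the mutant libraries. Apoe changed place with Lpl, from ratios of 0.489 and 0.827 to 2.46 and 1.41.

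**Figure D3:**
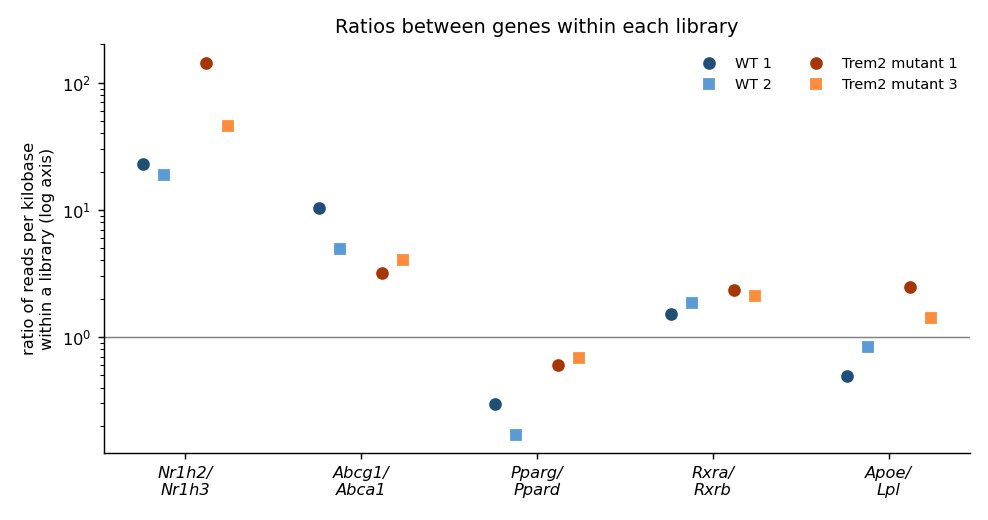
Ratios of reads per kilobase between pairs of genes within each library, on a log axis; each point is 1 library and the grey line marks equal levels. Apoe over Lpl crosses from below 1 in both WT libraries to above 1 in both mutant libraries.

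Among the other genes of the pathway 16 of 20 calls were higher, where 72.6% of the calls over all genes were, and scaling by library totals alone gave 7 higher and 17 lower. Of 20 other LXR targets, 15 were tested, and 5 rose, 0 fell and 10 did not pass, with a median log2 fold change of 0.27 (-0.02 over all genes). At an unadjusted edgeR p under 0.05, 1 gene of the list was lower, and DESeq2 and limma-voom each called 0 lower. The 5 were Scd2, a fatty acid desaturase (138 ± 3.71 CPM for WT, 215 ± 22.6 CPM for the mutant, SD, n = 2 each), Fasn (fatty acid synthase), Acaca (acetyl-CoA carboxylase), Lpcat3 (a phospholipid remodelling enzyme) and Smpdl3a (a phosphodiesterase). Of these, Scd2 alone was called with every single library left out. Acaca and Smpdl3a were lost without WT 1 (edgeR adjusted p = 0.0954 and 0.0640) and without WT 2 (0.0746 and 0.145), as was Fasn (0.103 and 0.131). Lpcat3 was lost without WT 1 (0.175), WT 2 (0.188) or Trem2 mutant 1 (0.0620). Srebf1, which encodes the lipogenic factor SREBP1 and is itself an LXR target, was at 78.0 and 69.1 CPM in WT and at 75.8 and 59.3 CPM in the mutant libraries (log2 fold change -0.12, edgeR adjusted p = 0.560). Fasn, Scd2 and Acaca are also targets of SREBP factors, so the list is not specific to LXR. With library totals as the only scaling none of these 5 genes was called.

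Of 20 PPAR target genes, 15 were tested, of which 5 rose, 0 fell and 10 did not pass (median 0.39). By edgeR's unadjusted p under 0.05, 10 were higher and 0 lower, and DESeq2 and limma-voom each called 0 lower. Plin2, the lipid droplet coat protein, went from 257 and 302 CPM in WT to 581 and 478 CPM in the mutant libraries (log2 fold change 0.92, SE 0.124, edgeR adjusted p = 0.00354). Mgll, monoglyceride lipase, went from 35.9 and 37.1 to 67.7 and 69.7 CPM (0.91, SE 0.0913, adjusted p = 0.00101), and Hilpda, a lipid droplet protein that inhibits lipolysis, from 69.1 and 99.5 to 165 and 152 CPM (0.91, SE 0.155, 0.00920). These 3 were called with any single library left out and with library totals alone. The fatty acid receptor gene Cd36 had 33 reads in each WT library and 79 and 72 in the mutant libraries (1.25, SE 0.237, adjusted p = 0.0142), a call lost without WT 1 (0.0892) and without WT 2 (0.0679). Cpt1a, which admits fatty acids to mitochondria, rose by 0.36 on the log2 scale, lost without WT 1 (adjusted p = 0.232) and without WT 2 (0.116). Plin2, Hilpda and others of the list also respond to hypoxia or fatty acids by other routes.

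**Figure D4:**
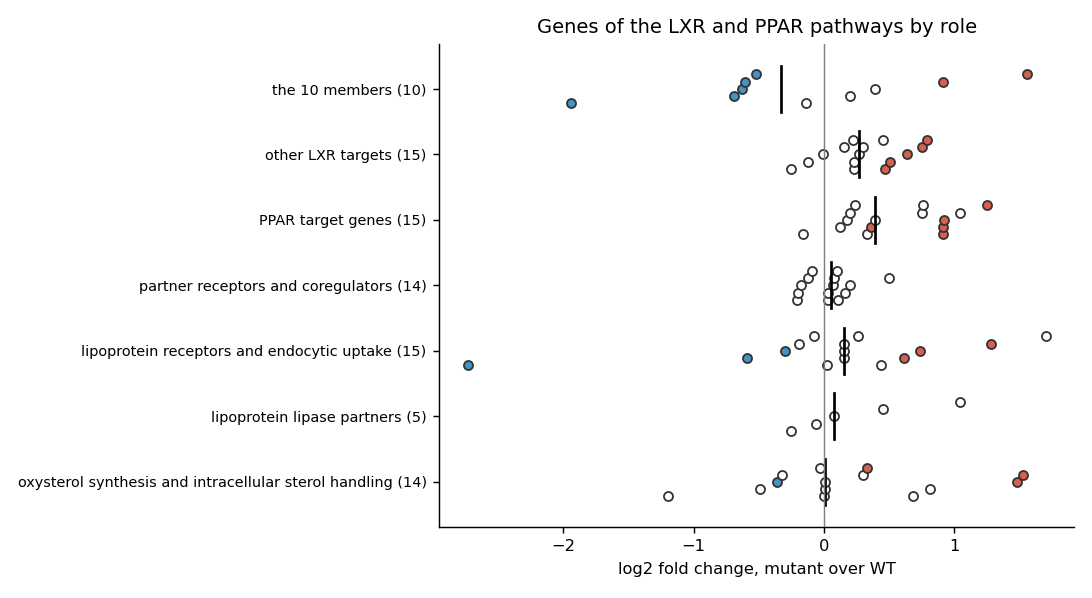
Log2 fold change of each tested gene (points) by list, with the list median as a black line; red points passed the test as higher in mutant libraries and blue points as lower. The 10 members have a median of -0.33, and the other LXR targets and PPAR targets have medians of 0.27 and 0.39 with 0 genes lower.

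None of the 14 tested partner receptors and coregulators passed, of 20 listed (median 0.05), by edgeR, DESeq2 or limma-voom. At an unadjusted edgeR p under 0.05, 1 was higher (Ncor1) and 1 lower (Med1). The lowest p among them belonged to Med1, a Mediator subunit, which averaged 124 ± 0.146 CPM over WT and 108 ± 1.57 CPM over mutant libraries (log2 fold change -0.20, edgeR adjusted p = 0.123). Ncor1, a corepressor that LXR and PPAR gamma share, was at 318 ± 5.08 and 365 ± 18.3 CPM (0.20, adjusted p = 0.156). Rxrb, the gene of RXR beta, was at 38.5 ± 2.07 and 33.2 ± 2.15 CPM (-0.21, 0.235), and Ep300, an acetyltransferase coactivator, at 343 ± 14.7 and 384 ± 8.15 CPM (0.16, 0.239). The lipase partners likewise gave 0 calls by these tools among 5 tested of 10 listed (median 0.08), with 1 gene, Angptl4, at an unadjusted edgeR p under 0.05. Lmf1, a factor that matures the lipase, had a log2 fold change of 0.45 (SE 0.200), and Angptl4, a secreted inhibitor of the lipase and a PPAR target, of 1.04 (SE 0.412) from levels of 1.53 ± 0.161 and 3.12 ± 1.36 CPM.

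Lipoprotein receptors and uptake genes split evenly. Of 15 tested of 16 listed, 3 rose, 3 fell and 9 did not pass (median 0.15). Sorl1, a sorting receptor, rose (706 ± 106 to 1183 ± 165 CPM, log2 fold change 0.74, edgeR adjusted p = 0.0144; 0.136 without WT 1), as did Lrp4 (0.61, adjusted p = 0.0371; 0.249 without WT 1). Msr1, a scavenger receptor of modified LDL, fell (-0.59, adjusted p = 0.0274), lost without WT 1 (0.0937) and without WT 2 (0.119). Lipa, the lysosomal acid lipase gene, fell by 0.30 on the log2 scale, and was called neither without WT 1 (0.265), without WT 2 (0.174) nor without Trem2 mutant 1 (0.0791).

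Oxysterol and sterol handling genes, 14 tested of 18 listed, gave 3 that rose and 1 that fell (median 0.01). Stard4, a sterol carrier, had 214 and 173 reads in WT and 524 and 550 reads in the mutant libraries (log2 fold change 1.53, SE 0.125, edgeR adjusted p = 4.29e-04). It was called whichever library was left out. Npc1, which exports cholesterol from lysosomes, fell by 0.36 on the log2 scale (312 ± 0.317 to 244 ± 20.7 CPM, adjusted p = 0.0382). That call was lost without WT 1 (0.212), WT 2 (0.165) or Trem2 mutant 3 (0.0759). Gramd1b, a carrier of plasma membrane cholesterol, rose by 0.33, lost without WT 1 (0.294) or WT 2 (0.168). Over all 6 lists, counting each gene once, 77 of 102 genes were tested, 16 rose and 4 fell, and 7 of these 20 calls held with every single library left out.

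Markers of several cell types, the gate genes Ly6g, Ly6c2 and Itgam among them, moved in the same libraries. Their part in the differences of the 10 genes was not tested. Summed over 12 granule genes of immature granulocytes, of which 10 rose, levels were 438 to 457 CPM in WT and 12132 to 17597 CPM in the mutant libraries. Ltf and Chil3 were the most abundant of them, and 0 genes of the list were at 0 in any library. For 10 mature neutrophil markers, 8 of which rose, the sums were 8628 to 8683 CPM and 21501 to 23054 CPM, with S100a9 and S100a8 leading. Of 9 monocyte markers 6 rose (1993 to 2143 CPM for WT and 3161 to 3413 CPM for the mutant). The most abundant of them, Csf1r, was at 846 and 864 CPM in WT and lower, at 704 and 701 CPM, in the mutant libraries (log2 fold change -0.28, edgeR adjusted p = 0.0784), while the next, Itgam, rose. By limma-voom 1 monocyte marker was called lower. Markers of macrophages, in which most of the 10 genes are known to be active, had overlapping sums of 1240 to 1296 CPM for WT and 1175 to 1389 CPM for the mutant. Of those 10 markers 4 rose (C1qa, C1qb, C1qc and Fcgr1) and 0 fell, while the most abundant, Adgre1 and Cd68, were at log2 fold changes of -0.20 and -0.31 and did not pass. The calls of C1qa, C1qb and C1qc were lost without WT 1, and that of C1qc also without WT 2. DESeq2 and limma-voom each called 3 of these markers higher and 0 lower. At an unadjusted edgeR p under 0.05, 5 were higher and 3 lower. Fibroblasts, which the sort on CD45 and CD11B should remove, express Lrp1: of 8 tested markers of fibroblast and mural cells 4 rose, Col1a1 and Col1a2 among them, and the sum of all 10 was 181 to 236 CPM in WT and 502 to 540 CPM in the mutant libraries. Adipocytes express Pparg and Lpl: of 8 adipocyte markers only Retn and Plin4 had rows, summing to 5.22 and 6.68 CPM in WT and 4.43 and 5.05 CPM in the mutant libraries, and neither passed. Of 5 tested eosinophil markers 5 rose, led by Siglecf and Prg2 (72.2 to 73.1 and 159 to 198 CPM, with 1 gene at 0 in a library). Of 4 tested erythroid markers 3 rose, led by Hbb-bs and Hba-a1 (6.74 to 27.6 and 61.3 to 164 CPM). Dendritic cell markers (Itgax and H2-Ab1 leading, 377 to 452 and 348 to 378 CPM) gave 0 calls among 6 tested, mast cell and basophil markers (Kit and Mcpt8, 129 and 112 to 130 CPM) 0 of 4, and B cell markers (Cd79b and Cd79a, 8.48 to 10.3 and 5.39 to 5.59 CPM) 0 of 5. By an unadjusted edgeR p under 0.05, 1 dendritic cell marker and 1 B cell marker were lower and 0 mast cell and basophil markers differed, and DESeq2 and limma-voom made 0 calls in these 3 lists. Endothelial markers (Vwf and Pecam1, 166 to 170 and 148 to 162 CPM) had 1 that rose and 1 that fell. Epithelial and tumour markers (Cdh1 and Krt18, 154 to 161 and 85.8 to 88.4 CPM, with 1 gene at 0 in a library) had 1 that fell, Cdh1. T and NK cell markers summed to at most 2.47 CPM, and 0 of them were tested.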

How the data were processed

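RNA from 4 libraries of sorted tumour MDSCs was measured, 2 per genotype, after ribosomal RNA depletion, per the labels' protocols. The authors deposited 1 table of raw read counts for Ensembl genes, not normalized. The submitters' processing notes name STAR 2.5.2a, FastQC, DESeq2 and the build GRCm38 (mm10). The sources used here do not say how reads were counted, with or without strand, or on which annotation. The lowest total of a listed gene was 11 reads, and genes without a row were not analysed here. GENCODE M21 gave names and positions for 17422 of 17476 IDs.

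Here the counts were filtered with filterByExpr, scaled with TMM and tested with edgeR 4.0.16 in R 4.3.3 (two-sided glmQLFTest after a default glmQLFit, with genotype as the one term), with Benjamini-Hochberg adjustment over 14239 genes. There were 2 residual and 5.71 prior degrees of freedom. An SE is the log2 fold change over the root of F. CPM per kilobase divide by the union of exons. A floor of 3 reads was 0.322 to 0.359 CPM and covers counting error only. The column numbered 3 matches no label number and was used as a mutant library. The squared difference between the libraries of a genotype was, at the median gene with 100 reads or more, 2.28 times sampling noise in WT and 10.5 times in the mutant. It was taken on shares of library totals without TMM scaling. It thus includes the offset between libraries that TMM removes, with factors of 1.15 and 1.13 in WT and 0.811 and 0.949 in the mutant. How much of either ratio is spread between replicates was not tested. Each library counted as 1 sample. The test was run on simulated data first. The members and lists were chosen with earlier results of these data known. Named genes were the members, Trem2, the 4 lowest p per pathway list and the 2 most abundant per marker list; other genes were added after their values were seen, among them further called list genes, Srebf1, the gate genes, C1qa, C1qb, C1qc, Cd63, Fcgr1, Ppard and Gm42418. Some list genes that the rule names are counted in their lists but not reported here. Alternatives were RLE, library totals or upper-quartile scaling, no filter or a stricter one (10 reads in 2 libraries and a mean of 1 CPM), DESeq2 1.42.0, limma-voom (limma 3.58.1), the bias-adjusted form of the test, leaving out 2622 noncoding and mitochondrial genes, and leaving out each library, where the lone library is assumed to vary like the other group.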

Additional observations from a re-analysis of the deposited data

How the results depend on the processing

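Over 13 alternatives, Pparg and Trem2 kept their direction and their call in each. Of 130 combinations of a member and an alternative, 110 kept direction and side of the threshold, 13 lost a call, 4 gained one (Abca1 at 1.03 without WT 2, Rxra at 0.36 without Trem2 mutant 3, and Nr1h2 at -0.31 without Trem2 mutant 1 and -0.53 with library totals alone) and 3 changed sign. The sign changes were Abca1 without WT 1 (-0.05), Nr1h2 without Trem2 mutant 3 (0.04) and Rxra with library totals alone (-0.19), none of them called. With library totals alone, 650 genes were higher and 4365 lower, so 13% of the calls were higher instead of 72.6%, and in the other pathway lists 7 were higher and 17 lower. With DESeq2, 1063 genes (7.47%) were higher and 198 (1.39%) lower. Of the members 2 were then higher and 4 lower, and in the other lists 13 were higher and 1 lower. Leaving out 1 library gave 489 to 2090 higher and 92 to 912 lower genes, 1 to 3 higher and 0 to 5 lower members, and 7 to 25 higher and 0 to 6 lower genes in the other lists. All members' calls as lower were lost without WT 1 and without WT 2, by edgeR. The log2 fold changes of the 5 genes that fell ranged there from -0.51 to -2.03. Without Trem2 mutant 1, Nr1h3 (-1.45) lost its call and Nr1h2 (-0.31) gained one. Without Trem2 mutant 3 the members called lower were those of the main fit. The cause of these changes was not tested. Leaving out noncoding and mitochondrial genes, both filters, limma-voom and the bias-adjusted form left the members' calls at 2 higher and 5 lower, as did RLE and upper-quartile scaling. No paired analysis was possible because the columns of the 2 genotypes share only the number 1. Depth limits Nr1h3, which had at most 11 reads in the mutant libraries.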
